A study of Mus musculus with 10 samples.

Results

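The genes described here are 46 stromal extracellular matrix genes, selected by symbol from the 35375 features of a gene count table of the mouse thymus. They were listed by hand as collagens, basement membrane proteins, elastic fibre proteins, proteoglycans, matrix glycoproteins, proteinases with their inhibitors, and mesenchymal receptors. Hspg2 was added because it fell in the homozygous knock-out, so its values are given as a description with no test. Total RNA without ribosomal RNA had been sequenced from thymus taken 3 days after birth, in 10 animals of the C57BL/6J background. In 3 animals both alleles of Usp7, which encodes a deubiquitinating enzyme, were knocked out in the hematopoietic system (homozygous KO). In 3 animals 1 allele was knocked out there (heterozygous KO), and 4 animals were wild type for Usp7. The series describes 2 of the wild types as carrying cre, a recombinase that deletes marked genes, and 2 as without it, and the labels do not tell which library is which. Column names in the count table read wt wt for wild types 1 and 2, with Usp7 at 676 and 670 CPM, and wt het for wild types 3 and 4, with Usp7 at 594 and 589 CPM, above every heterozygous KO library (472 to 516). All 4 were kept as wild type, as titled, and what these words stand for is not given in the sources used here. The cre driver is not given in the sources used here. The knock-out was directed at blood cells, whereas matrix genes are known mainly from the supporting cells of the organ, and all cells of the thymus were sequenced together. In such bulk samples, fewer cells of a type and less RNA per cell cannot be told apart. Usp7 itself averaged 377 CPM (TMM-scaled counts per 1 M) in homozygous KO, 501 in heterozygous KO and 633 in wild type, in the order of the labels, with no overlap between the homozygous KO libraries (303 to 422) and the wild types (589 to 676). Against wild type its log2 fold change was -0.74 in homozygous KO (edgeR adjusted p = 5.2e-04). In heterozygous KO it was -0.34 and did not pass (edgeR adjusted p = 0.608). Libraries held 39.8 to 122 M counts, and 3 counts, taken as the limit of detection, corresponded to 0.026 to 0.0737 CPM. The female-specific transcript Xist was at 1910 to 2460 CPM in homozygous KO 3 and in wild types 2, 3 and 4, and at most 1.12 CPM in the other libraries, so the groups differed in sex.

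The extracellular matrix is the network of secreted proteins around cells. Fibrillar collagens give it tensile strength, basement membranes of collagen IV, laminins, nidogens and perlecan line blood vessels and epithelium, and elastic fibres and fibulins add elasticity. In the thymus the matrix is made mainly by mesenchymal cells of the capsule and septa, by cells around vessels and by epithelium, and developing T cells meet it through integrins and other receptors. Thymocytes make up most cells of the organ, so that genes of the supporting cells are diluted in RNA from the whole organ.

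Upstream sequence is shown for 3 genes with clear differences between homozygous KO and wild type: Fbln1, which was higher, and Col15a1 and Hspg2, which were lower. The stretches end just before the RefSeq start of each gene, or for Hspg2 just before the first annotated exon, on the + strand of GRCm38.p6, at chr15:85205699-85205948 for Fbln1, chr4:47207762-47208011 for Col15a1 and chr4:137468553-137468768 for Hspg2. Capitals mark the GC box GGGCGG on either strand.
Fbln1: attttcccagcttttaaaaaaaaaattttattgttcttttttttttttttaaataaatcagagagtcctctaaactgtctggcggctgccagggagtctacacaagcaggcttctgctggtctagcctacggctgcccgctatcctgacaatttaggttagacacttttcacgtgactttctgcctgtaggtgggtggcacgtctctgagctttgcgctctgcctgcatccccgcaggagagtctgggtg
Col15a1: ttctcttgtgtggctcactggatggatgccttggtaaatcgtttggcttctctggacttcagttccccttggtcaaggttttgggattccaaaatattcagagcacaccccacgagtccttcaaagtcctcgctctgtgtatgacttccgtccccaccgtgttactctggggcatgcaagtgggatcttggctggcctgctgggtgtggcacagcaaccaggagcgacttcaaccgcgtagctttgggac
Hspg2: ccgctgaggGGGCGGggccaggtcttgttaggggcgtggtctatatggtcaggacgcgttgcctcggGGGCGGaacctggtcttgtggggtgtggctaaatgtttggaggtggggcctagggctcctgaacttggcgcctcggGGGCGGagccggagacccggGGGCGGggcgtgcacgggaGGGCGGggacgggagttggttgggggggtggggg
The Hspg2 stretch of 216 bases held 5 GC boxes and had a GC content of 70.8%. The 250 bases upstream of Fbln1 and of Col15a1 had a GC content of 46.4% and 53.6%. On both strands they were also searched for the TATA box, given as TATAAA, and for the CCAAT box. The AP-1 element was given as TGACTCA. None of these or the GC box was found in either stretch. Of the 46 genes, 27 matched an entry of the RefSeq promoter table. In the 250 bases upstream of any listed start, of which a gene can have several, the GC box occurred for 16 of the 27 genes (59.3%), beside 35.4% of all 27025 genes in the table. Fbln1 was among these 16 genes, through a listed start other than the one shown, and Col15a1 was not. The CCAAT box occurred for 9 (33.3%, beside 37.5%), the TATA box for 5 (18.5%, beside 14.3%) and the AP-1 element for 1, Col6a1 (3.7%, beside 5.16%). A match is a description of letters and not a binding site.

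Homozygous KO was compared with wild type to ask which matrix genes differ when both alleles of Usp7 are lost in blood cells. Of the 46 genes, 44 passed the filter on low counts, and Mfap5 and Loxl1, a microfibril protein and a lysyl oxidase-like enzyme, did not. Leaving out Hspg2, 19 of 43 were higher in homozygous KO and 4 were lower at an edgeR adjusted p under 0.05, and 20 did not pass. Over all 19511 genes tested, 12.5% were called higher and 13.2% lower. The median log2 fold change was 1.17 over the 43 genes and -0.01 over all genes tested. The homozygous KO libraries all lay above all wild types for 14 of the 43 genes and all below them for 3, beside 16.3% and 16.4% of all genes tested. Because the list was drawn up with results of these libraries known, these counts describe it and are no independent evidence of its direction.

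The calls differed in how far they rested on single libraries. Fbln1, Fbln2 and Col4a1 (higher) and Col15a1 and Timp2 (lower) passed in homozygous KO against wild type under all 19 alternatives, which covered other scalings, covariates, wild-type subsets and each library left out. The other 18 calls were lost under at least 1 alternative. The 23 calls became 12 without homozygous KO 2, 14 without homozygous KO 3 and 28 without homozygous KO 1. They became 11 without wild type 1 and 15 without wild type 3. Over all genes tested, the 5030 calls became 3987, 4056, 4530, 3991 and 4377 in the same order. In each role group below, the libraries whose omission ended a call are named.

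Among the fibrillar and fibril-associated collagens, 4 of 7 rose and none fell. All were low, at 0.26 to 3.06 CPM on average in wild type. Col1a1, a chain of type I collagen, was at 2.86, 9.19 and 4.49 CPM in homozygous KO 1, 2 and 3, at 0.88, 1.87 and 1.44 in heterozygous KO, and at 1.62, 3.66, 1.68 and 1.69 in wild type. Homozygous KO 2 was the highest library and wild type 2 stood above the lowest homozygous KO library, so the groups overlapped, and the log2 fold change was 1.36 (SE 0.42, adjusted p = 0.0349). Col1a2, its partner chain, was at 2.35, 7.04 and 3.65 CPM in homozygous KO and at 0.442, 2.38, 1.46 and 1.22 in wild type, with an overlap of 1 wild type and 1 homozygous KO library and a log2 fold change of 1.66 (SE 0.46, adjusted p = 0.0213). Col3a1, the type III collagen of soft connective tissue, was at 4.48, 14 and 8.27 CPM in homozygous KO against 1.99, 5.78, 2.75 and 1.74 in wild type. Col3a1 rose by 1.55 on the log2 scale (SE 0.43, adjusted p = 0.0212), and wild type 2 again reached into the homozygous KO range. Col5a1, a collagen that nucleates fibrils, was at 1.29, 3.2 and 2.98 CPM in homozygous KO and at 0.663, 1.01, 1.51 and 1.49 in wild type, and rose by 1.07 on the log2 scale (SE 0.35, adjusted p = 0.0422) with overlapping groups.

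These 4 fibrillar calls depended on single libraries. Without homozygous KO 2, all 4 were lost, with adjusted p-values of 0.195 for Col1a1, 0.11 for Col1a2, 0.103 for Col3a1 and 0.15 for Col5a1. Col1a1 was also lost without wild type 1 (0.0903), wild type 3 (0.084), wild type 4 (0.0763) or heterozygous KO 3 (0.0509), and Col3a1 without wild type 1 (0.0602) or wild type 3 (0.0525). Col5a1 did not pass without homozygous KO 3 (0.129), wild type 1 (0.0944), wild type 2 (0.0991) or any heterozygous KO library (0.0517 to 0.0578). Over all alternatives the adjusted p ranged from 0.0049 to 0.204 for Col1a1 and from 0.00147 to 0.114 for Col1a2. Of the members that did not pass, Col5a2, the second chain of type V collagen, had a log2 fold change of 1.83 (SE 0.66, adjusted p = 0.0634) and Col12a1, a fibril-associated collagen, one of 1.17 (SE 0.51, adjusted p = 0.118). Col14a1, also fibril-associated, averaged 0.747 CPM in homozygous KO and 0.775 in wild type.

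Of the 3 chains of collagen VI, a beaded filament around cells, 2 rose. Col6a1 was at 1.22, 4.08 and 2.83 CPM in homozygous KO, at 0.64, 0.712 and 0.795 in heterozygous KO and at 0.737, 1.08, 1.06 and 0.786 in wild type. Every homozygous KO library was above every other library, homozygous KO 1 only narrowly, and the log2 fold change was 1.56 (SE 0.34, adjusted p = 0.0069). No single library decided this call against wild type. Col6a3 was at 0.677, 2.45 and 1.12 CPM in homozygous KO and at 0.27, 0.891, 0.484 and 0.23 in wild type, overlapping, with a log2 fold change of 1.62 (SE 0.52, adjusted p = 0.0408). Its call was lost without homozygous KO 2 (adjusted p = 0.219), homozygous KO 3 (0.0569), heterozygous KO 2 (0.056) or 3 (0.0526), or wild type 1 (0.101), 3 (0.0771) or 4 (0.088). Col6a2, which lies beside Col6a1 on chromosome 10, had a log2 fold change of 1.07 (SE 0.39, adjusted p = 0.0649).

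**Figure D1:**
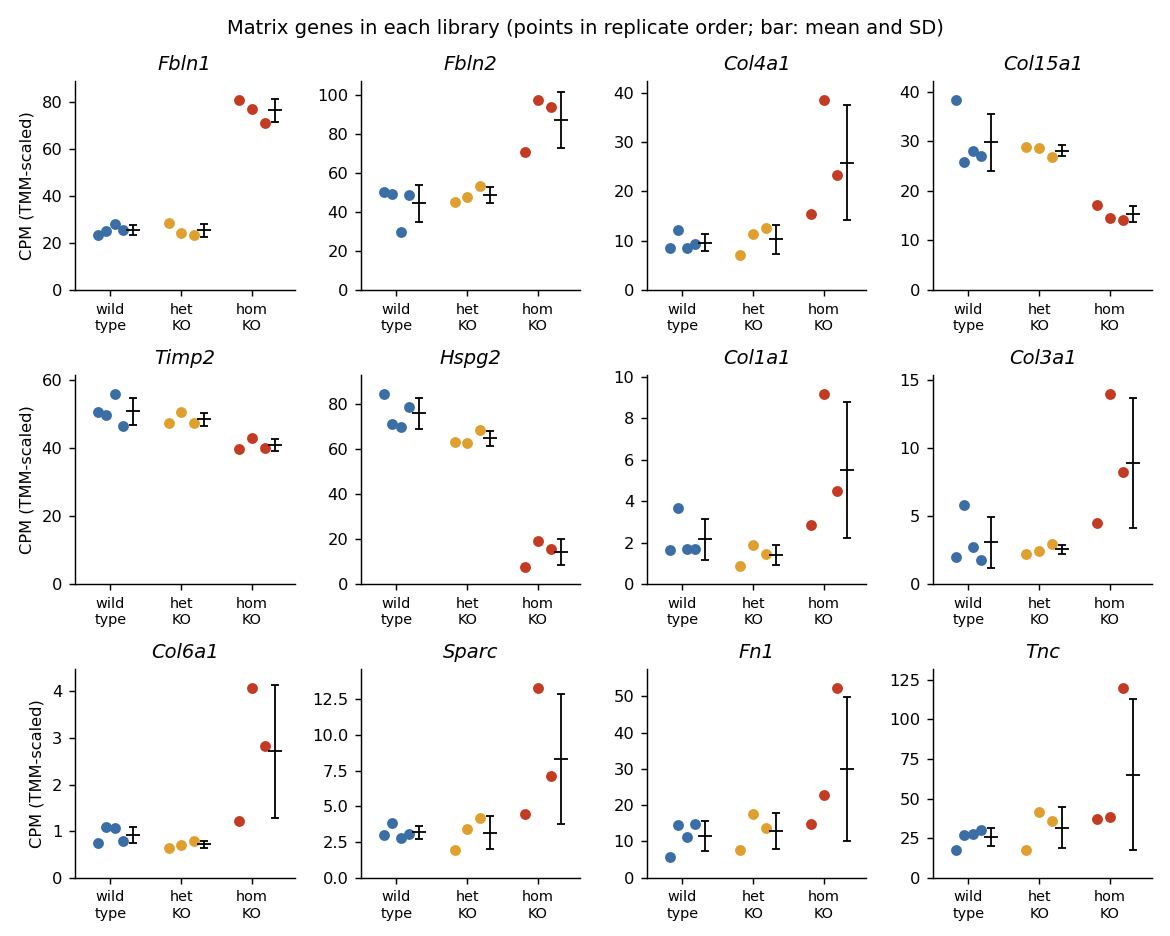
TMM-scaled CPM of 12 matrix genes (vertical axes from 0) in the 4 wild-type, 3 heterozygous KO and 3 homozygous KO libraries, as points in replicate order, with the mean and SD of each group as a bar. The homozygous KO points are tight and apart for Fbln1 (71.2 to 80.8 CPM) and Timp2 (39.6 to 42.7), and spread widely for Col1a1, Col3a1, Fn1 and Tnc.

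The basement membrane genes moved in both directions: of the 10 tested besides Hspg2, 4 rose, 2 fell and 4 did not pass. The collagen IV chains, which form the sheet itself, were the clearest rises. Col4a1 was at 15.5, 38.5 and 23.4 CPM in homozygous KO, at 7.03, 11.3 and 12.5 in heterozygous KO and at 8.54, 12.1, 8.45 and 9.26 in wild type. All homozygous KO libraries stood above the others, and the log2 fold change was 1.43 (SE 0.28, adjusted p = 0.00356). Col4a2, its partner, was at 9.21, 22 and 18.5 CPM in homozygous KO, at 5.35, 8.88 and 9.23 in heterozygous KO and at 5.25, 8.54, 6.74 and 7.16 in wild type. Col4a2 rose by 1.26 on the log2 scale (SE 0.28, adjusted p = 0.00759) and did not overlap wild type. The pair lies head to head on chromosome 8 (GRCm38, Col4a1 at 11198423 to 11312826 and Col4a2 at 11312805 to 11449287), and 22 bases of their annotated exons overlap.

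Lamb1, a laminin beta chain, was at 3.18, 5.16 and 8.38 CPM in homozygous KO, at 1.74, 3.4 and 3.09 in heterozygous KO and at 1.45, 2.72, 2.19 and 1.92 in wild type. It did not overlap wild type and rose by 1.43 on the log2 scale (SE 0.34, adjusted p = 0.00993). Nid2, a nidogen that links laminin to collagen IV, was at 1.74, 2.45 and 2.35 CPM in homozygous KO and at 1.57, 1.44, 1.0 and 1.44 in wild type, with a log2 fold change of 0.68 (SE 0.21, adjusted p = 0.0332). The Nid2 groups were separated by a small gap, and its call was lost without homozygous KO 2 (adjusted p = 0.11) or 3 (0.0949) or wild type 2 (0.0596) or 3 (0.071). Another gene's annotated exons cover 437 bases of Nid2, so its counts are less certain. Nid1, the other nidogen, had a log2 fold change of 0.96 (SE 0.34, adjusted p = 0.0592). The members that did not pass besides Nid1 were the laminin alpha chains Lama2 and Lama4 and Col18a1, which averaged 3.88 CPM in homozygous KO and 3.41 in wild type.

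The falls were in genes of higher level. Col15a1, which encodes a basement membrane collagen with glycosaminoglycan chains and lies on chromosome 4 (GRCm38, 47208161 to 47313167), was at 17.2, 14.6 and 14.2 CPM in homozygous KO, at 28.9, 28.7 and 26.8 in heterozygous KO and at 38.3, 25.8, 28.1 and 27.1 in wild type. Each homozygous KO library was below every other library, the 2 other groups overlapped, and Col15a1 fell by 0.96 on the log2 scale (SE 0.13, adjusted p = 4.0e-04). Lamc1, the laminin gamma chain shared by most laminins, was at 22.9, 33.0 and 30.8 CPM in homozygous KO and at 44, 43.8, 40.2 and 31.8 in wild type, where wild type 4 fell inside the homozygous KO range. Lamc1 stood at a log2 fold change of -0.46 (SE 0.15, adjusted p = 0.0439). The Lamc1 call was lost without homozygous KO 1 (adjusted p = 0.127) or 3 (0.0674), heterozygous KO 3 (0.0589), or wild type 1 (0.105), 2 (0.106) or 3 (0.0774).

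Hspg2 encodes perlecan, the large heparan sulfate proteoglycan of basement membranes, and lies on chromosome 4 (GRCm38, 137468769 to 137570630). It was at 7.62, 19.3 and 15.6 CPM in homozygous KO, at 63.2, 62.5 and 68.5 in heterozygous KO and at 84.6, 71.0, 69.9 and 78.6 in wild type. The homozygous KO libraries were far below all others, and the heterozygous KO libraries were also below every wild type, by a much smaller step. The log2 fold changes were -2.42 (SE 0.25) in homozygous KO against wild type, -2.19 (SE 0.25) against heterozygous KO and -0.23 (SE 0.23) in heterozygous KO against wild type. They carry no test because this fall chose the gene. Per kilobase of exon its wild-type level, 5.31 CPM, was close to that of Fbln1 (5.86), Lamc1 (4.83) and Col15a1 (4.7).

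**Figure D2:**
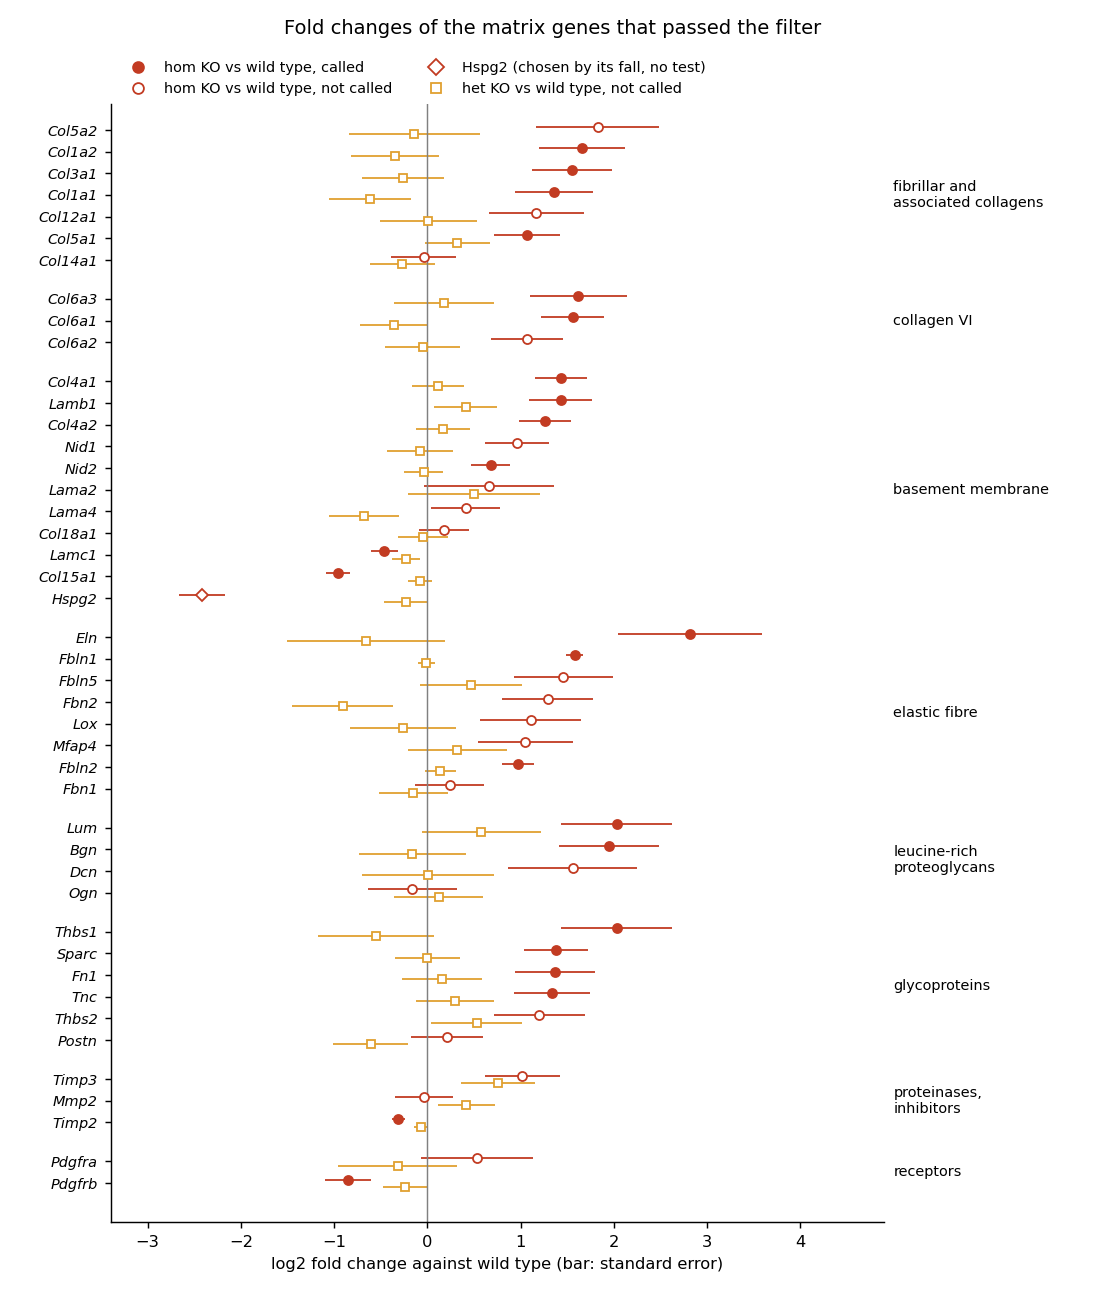
Log2 fold changes against wild type (horizontal axis, bars standard errors) of the 44 matrix genes that passed the filter, by role, in homozygous KO (red circles, filled where called) and heterozygous KO (orange squares). The homozygous KO values run from -2.42 for Hspg2 to 2.82 for Eln, whereas no heterozygous KO value was called.

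Of the elastic fibre genes and fibulins, 3 of the 8 tested rose and none fell. Fbln1, fibulin 1, a calcium-binding glycoprotein of basement membranes and elastic fibres on chromosome 15 (GRCm38, 85205949 to 85286535), had the smallest error of any rise. It was at 80.8, 77.1 and 71.2 CPM in homozygous KO, at 28.5, 24.2 and 23.6 in heterozygous KO and at 23.4, 25.3, 28.2 and 25.5 in wild type. The lowest homozygous KO library was far above the highest of the other libraries, and the log2 fold change was 1.58 (SE 0.09, adjusted p = 1.0e-06). Fbln2, fibulin 2, on chromosome 6 (GRCm38, 91212455 to 91272540), was at 70.5, 97.2 and 93.4 CPM in homozygous KO, at 45.3, 47.8 and 53.2 in heterozygous KO and at 50.1, 48.9, 29.8 and 48.4 in wild type. It rose by 0.97 on the log2 scale (SE 0.17, adjusted p = 0.00168) with no overlap of homozygous KO with the rest. The third fibulin, Fbln5, was much lower, at 0.65 CPM on average in homozygous KO, and its log2 fold change of 1.46 (SE 0.53, adjusted p = 0.0681) did not pass.

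Eln, which encodes elastin, had the largest fold change of the called members but at a low level: homozygous KO stood at 0.903, 4.52 and 0.986 CPM, heterozygous KO at 0.1, 0.0628 and 0.414, and wild type at 0.221, 0.626, 0.315 and 0.0967. Homozygous KO 2 was several times higher than the other 2 homozygous KO libraries, all 3 were above the wild types, and the log2 fold change was 2.82 (SE 0.77, adjusted p = 0.0204). Without homozygous KO 2 the adjusted p was 0.137 and without wild type 1 it was 0.0569. Fbn2, a fibrillin of early microfibrils, was at 0.434, 0.694 and 0.576 CPM in homozygous KO and at 0.0246, 0.241, 0.315 and 0.302 in wild type, with a log2 difference of 1.29 (SE 0.49, adjusted p = 0.0774). The lowest wild type value of Fbn2 was below the limit of 3 counts. Loxl1, not tested, was at 0.0694, 0.235 and 0.0776 CPM in homozygous KO and at most 0.0523 elsewhere. It was counted 1, 2, 2 and 2 times in the wild types, all below the limit of 3 counts. Fbn1, the main fibrillin, the crosslinking enzyme Lox and the microfibril protein Mfap4 did not pass. Another annotated gene shares 2442 bases of the exons of Fbn1, so its counts are less certain.

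The small leucine-rich proteoglycans, which bind collagen fibrils, were rare: 2 of 4 rose. Lum (lumican) was counted 12, 31 and 31 times in homozygous KO 1, 2 and 3 and 1, 2, 9 and 4 times in the wild types, or 0.104, 0.303 and 0.344 CPM against 0.0246, 0.0481, 0.101 and 0.0484. The groups were separated by a narrow gap, and the log2 fold change was 2.03 (SE 0.6, adjusted p = 0.0284). Lum lost its call without homozygous KO 2 (adjusted p = 0.0842) or 3 (0.0991) or wild type 1 (0.0684), 2 (0.0652) or 4 (0.0639). Bgn (biglycan) was at 0.356, 2.51 and 0.909 CPM in homozygous KO and at 0.246, 0.385, 0.394 and 0.266 in wild type. Homozygous KO 1 lay within the wild-type range, and the log2 fold change of 1.95 (SE 0.54, adjusted p = 0.0206) was lost without homozygous KO 2 (adjusted p = 0.142) or wild type 1 (0.0558). Dcn (decorin) had a log2 fold change of 1.56 (SE 0.69, adjusted p = 0.123). Ogn, the member of highest level per kilobase in this group, averaged 2.06 CPM in homozygous KO and 2.32 in wild type.

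Of the 6 matrix glycoproteins, 4 rose and none fell. Sparc, a collagen-binding matricellular protein, was at 4.43, 13.3 and 7.1 CPM in homozygous KO, at 1.92, 3.39 and 4.18 in heterozygous KO and at 3.0, 3.85, 2.81 and 3.06 in wild type. No library overlapped between homozygous KO and the rest, and the log2 fold change was 1.38 (SE 0.34, adjusted p = 0.0128). Without homozygous KO 2 its adjusted p was 0.0611. Fn1, fibronectin, the main adhesive glycoprotein, was at 14.8, 22.9 and 52.4 CPM in homozygous KO and at 5.84, 14.5, 11.2 and 14.7 in wild type. The lowest homozygous KO library and the highest wild type nearly met, and the log2 fold change was 1.37 (SE 0.43, adjusted p = 0.0364).

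Tnc, tenascin C, a large glycoprotein of remodelling tissue, was at 36.8, 38.1 and 120 CPM in homozygous KO, at 17.2, 41.7 and 35.8 in heterozygous KO and at 17.3, 26.9, 27.9 and 30 in wild type. Homozygous KO 3 stood far above the other 2, which overlapped heterozygous KO, and the log2 fold change against wild type was 1.34 (SE 0.41, adjusted p = 0.0347). Without homozygous KO 3 the adjusted p was 0.23 for Tnc and 0.219 for Fn1. Both calls were also lost without wild type 1 (Tnc 0.0911, Fn1 0.0848), wild type 2 (Tnc 0.0711, Fn1 0.0546) or wild type 3 (Tnc 0.0626, Fn1 0.0755), and Fn1 without heterozygous KO 3 (0.0523). Thbs1, thrombospondin 1, which regulates adhesion and vessel growth, was at 1.1, 5.69 and 7.3 CPM in homozygous KO and at 1.1, 1.32, 0.315 and 1.87 in wild type. Homozygous KO 1 lay within the wild-type range, and the log2 fold change of 2.03 (SE 0.6, adjusted p = 0.0288) was lost without homozygous KO 2 (adjusted p = 0.076) or 3 (0.113) or wild type 1 (0.0687) or 2 (0.0591). Thbs2 had a log2 fold change of 1.2 (SE 0.49, adjusted p = 0.0936), and Postn, periostin, averaged 2.18 CPM in homozygous KO and 1.88 in wild type.

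Among the proteinase Mmp2 and the 2 tissue inhibitors of metalloproteinases, Timp2 fell. Timp2, on chromosome 11 (GRCm38, 118301069 to 118355740), had the highest wild-type level per kilobase of all 46 genes, 13.0 CPM. It was at 39.6, 42.7 and 39.9 CPM in homozygous KO, at 47.3, 50.5 and 47.1 in heterozygous KO and at 50.6, 49.7, 55.8 and 46.5 in wild type. All homozygous KO libraries were below all others, by a small margin, and the log2 fold change was -0.31 (SE 0.07, adjusted p = 0.00688). Timp3, an inhibitor held in the matrix, was at 2.17, 2.99 and 3.48 CPM in homozygous KO, at 1.64, 2.83 and 2.74 in heterozygous KO and at 0.442, 1.32, 1.64 and 2.16 in wild type. The log2 fold change of Timp3 was 1.02 (SE 0.4, adjusted p = 0.0844), and 1733 bases of its exons are shared with another annotated gene. Mmp2, a gelatinase, averaged 2.08 CPM in homozygous KO and 2.12 in wild type.

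Of the platelet-derived growth factor receptors, which mark mesenchymal cells and pericytes, Pdgfrb fell. It was at 8.45, 21.1 and 13.2 CPM in homozygous KO, at 24.7, 21 and 19.4 in heterozygous KO and at 28.6, 24.1, 28.6 and 21.5 in wild type. Homozygous KO lay below wild type with almost no gap, homozygous KO 2 lay within the heterozygous KO range, and the log2 fold change was -0.85 (SE 0.25, adjusted p = 0.026). The Pdgfrb call was lost without homozygous KO 3 (adjusted p = 0.0787) or wild type 1 (0.0636) or 3 (0.0591). Pdgfra, a defining marker of thymic mesenchyme, was at most 0.205 CPM in any library and did not pass.

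Homozygous KO was next set beside heterozygous KO, which measures the difference between the loss of both alleles and the loss of 1. Of the 43 genes, 14 were higher and 2 lower in homozygous KO, beside 7.63% and 9.5% of all genes tested, and 27 did not pass. The same homozygous KO libraries enter both comparisons, so they are not independent. The genes higher in both were 13, and Fbn2 was higher against heterozygous KO alone, by 2.21 on the log2 scale (SE 0.55, adjusted p = 0.0183), where the heterozygous KO libraries were at 0.12, 0.115 and 0.131 CPM. Fbln1 was higher by 1.59 (SE 0.09, adjusted p = 2.6e-06), Fbln2 by 0.83 (SE 0.18, adjusted p = 0.00897), Col4a1 by 1.32 (SE 0.3, adjusted p = 0.0118) and Col6a1 by 1.92 (SE 0.38, adjusted p = 0.00512). Col15a1 was lower, at -0.88 (SE 0.14, adjusted p = 0.00134). These 5 calls passed in every alternative of this comparison.

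The other 10 calls of genes already described were lost in at least 1 alternative. Col4a2 (log2 fold change 1.08, adjusted p = 0.0316), Sparc (1.39, 0.0256), Nid2 (0.72, 0.0468), Bgn (2.11, 0.0283), Eln (3.48, 0.0179) and Thbs1 (2.58, 0.0217) were higher in homozygous KO. So were the fibrillar chains Col1a1 (1.98, 0.0135), Col1a2 (2.01, 0.0183) and Col3a1 (1.81, 0.0216), and Timp2 was lower (-0.24, 0.0423). The 16 calls became 7 without homozygous KO 2, 12 without homozygous KO 3 and 24 without homozygous KO 1. They became 5 without heterozygous KO 1, 6 without heterozygous KO 2 and 7 without heterozygous KO 3. Over all genes tested, the 3342 calls became 2779, 2578, 2990, 2407, 2391 and 2153 in the same order. Without heterozygous KO 1 all 10 of these and Fbn2 were lost, with adjusted p-values from 0.0558 (Col1a1) to 0.119 (Nid2).

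In heterozygous KO against wild type, none of the 43 genes was called by edgeR or by DESeq2, and none had an unadjusted p under 0.05. Over all 19511 genes tested, 0.0154% were called by edgeR and 71 genes by DESeq2, so that few calls of any kind were made in this comparison. An unadjusted edgeR p under 0.05 was found for 1421 of the 19511. Among the matrix genes the lowest adjusted p was 0.739, and the log2 fold changes ran from -0.91 (SE 0.54) for Fbn2 to 0.76 (SE 0.4) for Timp3, with 18 positive and 25 negative. For Fbln1 the heterozygous KO libraries, at 23.6 to 28.5 CPM, lay over the wild-type range of 23.4 to 28.2. A difference that did not pass is not shown to be absent.

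The matrix genes were unevenly distributed over the homozygous KO libraries. Homozygous KO 2 was the highest of its group for 31 of the 43 genes and homozygous KO 1 the lowest for 39. Among the 19 rises, the highest homozygous KO library was a median of 3.12 times the lowest (range 1.13 to 7.06), and 1.32 times for the 4 falls. Fn1, Tnc, Lamb1, Lum and Thbs1 peaked in homozygous KO 3. In wild type, library 2 was the highest for 10 of the 19 rises and library 1 the lowest for 11. Added up, the 46 genes without Hspg2 took 357, 517 and 560 CPM in homozygous KO 1, 2 and 3. They took 282 to 322 in heterozygous KO and 298 to 327 in wild type. The excess of homozygous KO 1 was not spread over the list. Its elastic fibre genes, mostly Fbln1 (80.8 CPM) and Fbln2 (70.5), took 154 CPM against 60.3 to 77.1 in wild type. Its glycoproteins took 58.6 against 28.9 to 51.8 in wild type, which lay within the heterozygous KO range of 29.2 to 65.6. Its basement membrane genes (73.6 against 83.9 to 103), proteinases and inhibitors (43.4 against 51.1 to 59.5) and receptors (8.57 against 21.5 to 28.7) lay below every wild type. The other role groups lay within the wild-type range.

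The animal numbers in the titles form a block from 44 to 51, with homozygous KO 1, heterozygous KO 1 and wild types 1 to 3, and a block from 56 to 63 with the other libraries. What the blocks stand for is not given in the labels. All 19 rises were positive in both blocks, with a median difference in log2(CPM + 0.1) of 0.46 (0.06 to 1.66) in the first, which has 1 homozygous KO library, and 1.69 (0.7 to 3.51) in the second, which has 1 wild type. The 4 falls were negative in the first block, and 3 of them in the second, where Lamc1 was at 0.01. These rises and falls were called from the same libraries, so a shared sign in the blocks is partly set by that choice. Tested members that did not pass went both ways in the first block, from -1.1 for Fbn1 to 1.04 for Fbn2. Fbln1 was alike in both blocks, at 1.66 and 1.54, as was Col15a1, at -0.82 and -0.91. With the block as a term in the model, 10 of the 23 calls passed: Col6a1, Col4a1, Col4a2, Fbln1, Fbln2, Sparc, Lamb1, Col15a1, Pdgfrb and Timp2. Over all genes tested, 5303 were called with the block and 5030 without it.

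**Figure D3:**
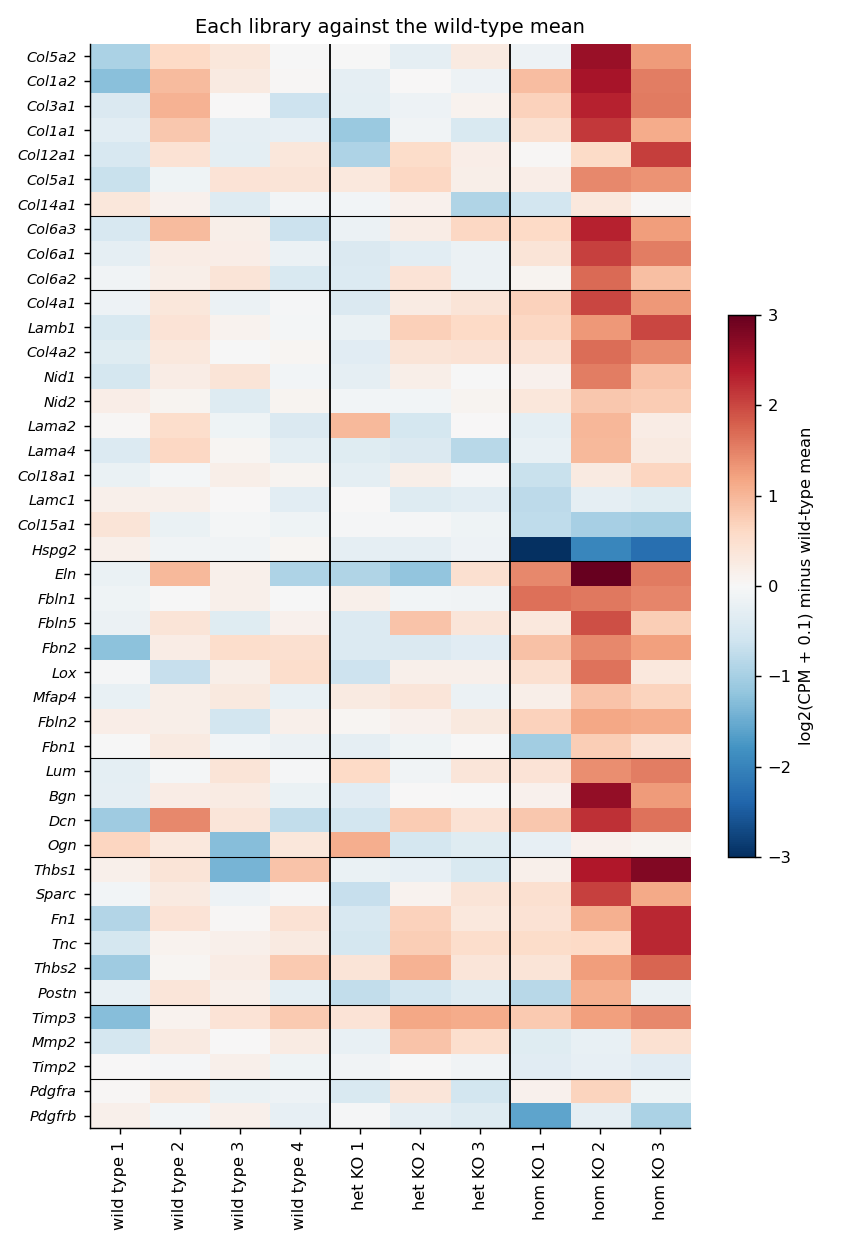
Difference of each library from the wild-type mean in log2(CPM + 0.1), for the 44 tested matrix genes (rows, grouped by role) and 10 libraries (columns), from blue (lower) to red (higher), with colours capped at 3. Homozygous KO 2 and 3 are red for most rows, homozygous KO 1 is paler, and Hspg2, Col15a1 and Timp2 are blue or pale blue in all 3.

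Levels differed widely between the matrix genes. Per kilobase of exon, the highest wild-type levels after Timp2 were those of Fbln2 (6.96 CPM), Fbln1 (5.86), Hspg2 (5.31), Lamc1 (4.83), Col15a1 (4.7), Pdgfrb (4.69) and Tnc (3.28). The 4 falls and Hspg2 all belong to this group, whereas Fbln1, Fbln2 and Tnc rose. The fibrillar collagens were far lower per kilobase, with Col1a1 at 0.329 CPM and Col3a1 at 0.312.

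**Figure D4:**
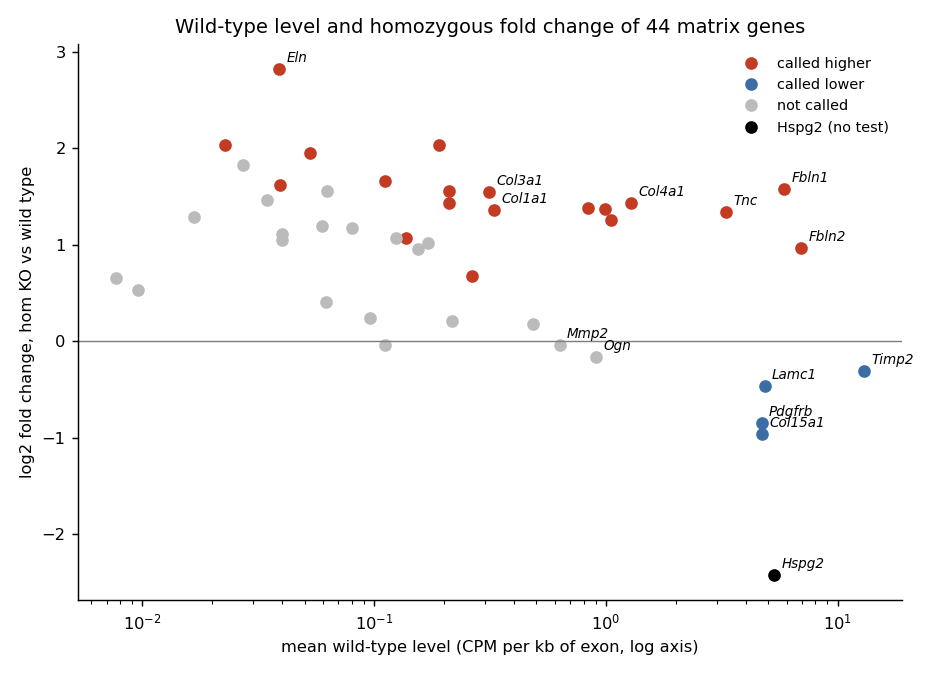
Mean wild-type level (CPM per kilobase of exon, log axis) against the log2 fold change in homozygous KO of the 44 tested matrix genes, one point a gene, coloured by call. The genes called lower and Hspg2 all lie above 4 CPM per kilobase, where Fbln1 and Fbln2 were higher.

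The other lists of matrix biology had medians between -0.15 and 0.03. Of 53 other core matrix genes, 44 were tested, 6 rose (13.6%) and 7 fell (15.9%), with a median log2 fold change of -0.04. These shares were near those over all genes tested, 12.5% higher and 13.2% lower. Among the laminins, Lama5, an alpha chain of epithelial and vascular membranes, was at 17.5, 30.4 and 34.4 CPM in homozygous KO against 4.26 to 5.95 in wild type (log2 fold change 2.44, adjusted p = 1.8e-05), and Lamb3 rose by 1.04. Lamb2, in contrast, fell to 1.37, 1.64 and 1.83 CPM from 5.19 to 7.45 (log2 fold change -2.08, adjusted p = 1.3e-05), and the fibrillar collagen Col27a1 fell to 2.25, 2.71 and 3.52 CPM from 11.0 to 14.6 (-2.24, adjusted p = 9.6e-06). Neither overlapped wild type. Of the enzymes that modify and fold collagen, 3 of 25 rose and 4 fell (median 0.03): Plod2, a lysyl hydroxylase, rose by 0.98 and Adamts3, a procollagen proteinase, by 1.89, while P4ha1, a prolyl hydroxylase, and Plod1, another lysyl hydroxylase, fell (-0.52 and -0.72). Of 15 tested matrix proteinases and inhibitors 3 rose, among them Mmp9 (1.7), and 6 fell, among them Mmp14 (-1.05), Mmp15 (-1.39) and Adam12 (-1.11).

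Of the 21 matrix receptors, 4 rose (19.0%) and 6 fell (28.6%), with a median of -0.15. Itgb3, the integrin beta 3 chain, was at 5.83, 1.96 and 1.31 CPM in homozygous KO and at 21.5 to 40 in wild type (log2 fold change -3.19, adjusted p = 4.2e-04), and Cd44, a hyaluronan receptor, fell by 1.35, with no overlap for either. Itga9, an integrin alpha chain that binds tenascin C, fell by 0.82. Itgav, a partner of Itgb3, rose by 0.34. TGF-beta and PDGF signalling drives matrix synthesis in many tissues. Of its 14 tested ligands, receptors and SMADs, 1 rose (7.14%) and 5 fell (35.7%), with a median of -0.06. Smad7, an inhibitor of that pathway, was at 5.91, 2.58 and 2.29 CPM in homozygous KO and at 17.8 to 24.0 in wild type (log2 fold change -2.56, adjusted p = 1.4e-04), and the receptor Tgfbr2 fell by 0.35.

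**Figure D5:**
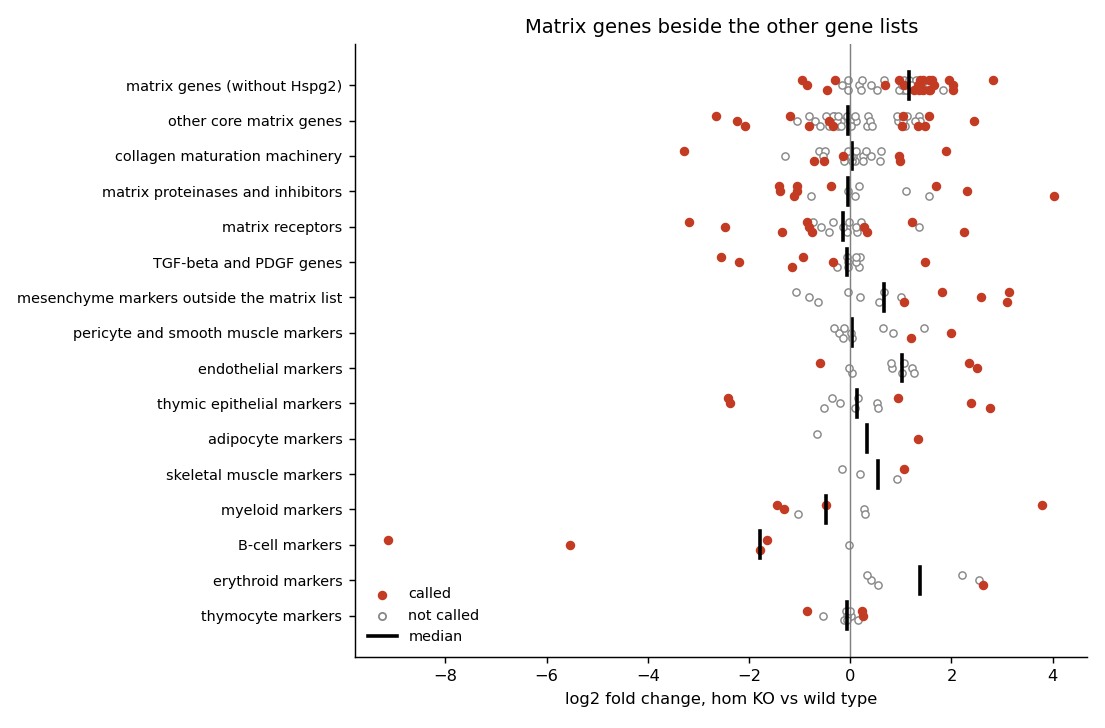
Log2 fold changes between homozygous KO and wild type for the tested matrix genes without Hspg2 and of the other gene lists (rows), one point a gene, red where called, with the median as a black bar. The matrix genes have a median of 1.17, the other core matrix genes of -0.04, and the B-cell markers of -1.79.

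Markers of other cell types were read beside the matrix genes. Over all genes tested, 12.5% were called higher and 13.2% lower in homozygous KO than in wild type. Of 13 tested mesenchyme markers outside the list, 5 rose (Pdpn, Ptn, Gas1, Prrx1 and Fstl1) and none fell, with a median log2 fold change of 0.67. All were low, and the summed level of the 18 was 4.3, 8.71 and 9.08 CPM in homozygous KO, 3.32 to 4.14 in heterozygous KO and 3.78 to 4.38 in wild type, so it was higher in the same 2 homozygous KO libraries as most matrix genes. Of 11 pericyte and smooth muscle markers (median 0.04) 2 rose (18.2%), Kcnj8 and Notch3, which thymocytes also express. Notch3 was at 385, 715 and 607 CPM against 212 to 263 in wild type and made up most of the summed level of 417 to 757 CPM in homozygous KO against 249 to 299. Of 11 tested endothelial markers 2 rose (18.2%, Tie1 and Vwf) and Egfl7 fell (9.09%), so each share rests on 1 or 2 genes. Their median log2 fold change was 1.03, close to that of the matrix genes, and 9 of the 11 were positive, with summed levels of 156 to 173 CPM in homozygous KO and 149 to 163 in wild type. Tie1 at 1.85 CPM and Vwf at 3.64 CPM were highest in homozygous KO 2.

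Of 12 tested thymic epithelial markers 3 rose (25.0%) and 2 fell (16.7%), beside 12.5% and 13.2% of all genes tested. Krt5 was among the rises (8.44, 13.5 and 31.3 CPM against 1.84 to 3.65 in wild type). Cldn4 was among the falls (-2.41 on the log2 scale), and the median log2 fold change of the list was 0.13. Krt17 rose by 0.95, a call lost without homozygous KO 3 (adjusted p = 0.236), wild type 1 (0.106), 2 (0.0938) or 3 (0.0569), or heterozygous KO 2 (0.051) or 3 (0.0595). Their summed level was 125, 136 and 287 CPM in homozygous KO, 121 to 241 in heterozygous KO and 120 to 192 in wild type, highest in homozygous KO 3, as were Tnc and Fn1. Myeloid markers summed to 50.1, 149 and 89.5 CPM in homozygous KO against 66.5 to 77.7 in wild type (S100a8 rose, and Csf1r, Adgre1 and Cd68 fell, of 7, median -0.48). B-cell markers (4 of 5 fell, among them Cd79b and Cd79a) summed to 294 to 334 CPM in homozygous KO and 321 to 379 in wild type. Their median log2 fold change was -1.79, a much larger fall than that of the sum, which therefore does not reflect the 4 calls. Of 6 erythroid markers 1 rose, but all 6 were positive, with a median log2 fold change of 1.38, above that of the matrix genes. They summed to 1680, 1820 and 176 CPM in homozygous KO and to 289 to 1550 in wild type. Markers of adipocytes (1 of 2 tested rose, median 0.34) summed to 1.73, 5.49 and 2.24 CPM in homozygous KO against 1.13 to 1.67 in wild type, and those of skeletal muscle (1 of 4 rose, median 0.55) to 21.9 to 23.2 against 18.7 to 23.2. Parathyroid markers, of which none was tested, were at most 0.101 CPM in sum. Thymocyte markers (Cd8a and Lck rose and Rag1 fell, of 11, median -0.06) summed to 10500 to 10800 CPM in homozygous KO, 11900 to 12700 in heterozygous KO and 12100 to 13500 in wild type, so the tissue held the markers of the labelled organ. The calls of Cd8a and Lck were lost with library totals alone (adjusted p = 0.0894 and 0.0882) and with only the wild types of 1 wt word (0.091 and 0.108). Where a list held 1 or 2 calls in a direction, they are not read as a change in that cell type. The part of these cell types in the matrix results was not tested.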

How the data were processed

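RNA-seq libraries of thymus from 10 mice were used. The authors deposited 1 table of raw read counts per gene, whole numbers with no normalization. Per the labels, RNA was depleted of ribosomal RNA and made into stranded libraries. The submitters' processing notes name CASAVA, STAR 2.4.1d and HTSeq 0.6.1p1, with the builds NCBIM37 and mm9. Whether HTSeq counted by strand is not given in the sources used here, so reads of a gene and of an overlapping or antisense gene may not be separated. Columns were matched to samples by animal and library number, and groups came from the titles. The columns of wild types 3 and 4, which have 1 wt word in the title, also carry the word het, and both forms of wild type were tried alone as alternatives. Library totals were 39.8 to 122 M counts, of which features without an Ensembl identifier took 1.74% to 2.29%. Limits of 3 counts cover counting error only. Symbols, positions and exon lengths came from GENCODE M21 (GRCm38) by gene identifier, and this build differs from that of the files. It matched 92.4% of the tested features. Promoter sequences came from RefSeq (GRCm38.p6), and each window was cut at the first annotated exon in it. This left 216 bases for Hspg2 and 0 for Col4a1, Fbln2 and Timp2, which were not printed.

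Counts were tested with edgeR 4.0.16 (R 4.3.3): filterByExpr left 19511 features, TMM scaling was used, and glmQLFit with glmQLFTest was fitted once over all 10 libraries and 3 groups. Calls needed a Benjamini-Hochberg adjusted p under 0.05 over all features tested. The step was tested on simulated data. Each animal is 1 library. Alternatives were DESeq2 1.42.0, library totals alone, no filter, each library left out, the replicate number as a block, the animal-number block, Xist as a covariate, the wild types with 1 or with 2 wt words in the title alone, and only the groups compared. Same-numbered libraries did not deviate together in every pair (correlations -0.142 to 0.299), so the numbers were not taken to pair animals. The members and lists were chosen with earlier results of these data known. All 46 members are accounted for. A marker gene of the B-cell list is not reported here and was left out of it. Called members are given in full, and of each other list up to 4 called genes of the largest change, provided that their mean log2 CPM reached 2. Other genes are named only beside the markers that moved.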

Additional observations from a re-analysis of the deposited data

Results flagged for a closer look

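Among the 44 matrix genes with 4 wild-type libraries, 2 had a wild-type library far from the other 3. Chance gives about 1 such library in 20 genes. Col1a1 was at 3.66 CPM in wild type 2, beside 1.62 to 1.69 in the other wild types. Fbln2 was at 29.8 CPM in wild type 3, beside 48.4 to 50.1 in the others, and its rise in homozygous KO was called with and without that library.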

How the results depend on the processing

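Against wild type, 23 matrix genes were called in homozygous KO. Adding the block of animal numbers gave 10. With only the wild types of 1 wt word in the title 7 were called, and with only those of 2 wt words 8. Over all genes tested, 5030 calls rose to 5303 with the block. They fell to 2670 and 3595 with the 2 forms of wild type. With 1 library left out the count ranged from 11 to 28, and over all genes tested from 3945 to 5152. Against heterozygous KO, 16 were called, and 5 to 24 with 1 library left out. Over all genes tested these were 3342, and 2153 to 3370. The replicate block gave 26 called genes against wild type, of which 21 were shared, and 21 against heterozygous KO. It ended the calls of Lum and Nid2 against wild type and of Nid2 against heterozygous KO. DESeq2 gave 28 and 20, library totals alone 19 and 15, and no filter 22 and 15. Xist as a covariate gave 21 and 12, and only the groups compared 17 and 12. Over all genes the calls in the same order were 5820 and 4088, 4941 and 3186, 4574 and 2982, 4045 and 2719, and 4237 and 2553. Of the 21 with the Xist covariate, 17 were shared with the 23. The calls of Col1a1, Col6a3, Bgn, Eln, Nid2 and Lamc1 against wild type were lost with it. Against heterozygous KO it ended the calls of Col4a2, Nid2, Timp2 and Thbs1. The median over the matrix genes against wild type, 1.17, ran from 0.85 (without homozygous KO 2) to 1.45 (without homozygous KO 1), and was 0.88 with the animal-number block, 1.39 with the Xist covariate and 1.1 to 1.22 in the other alternatives. Against heterozygous KO, 1.05 ran from 0.68 to 1.33 without the same libraries, and from 0.94 to 1.05 in the other alternatives. With only the wild types of 1 wt word, Itga9 (adjusted p = 0.059) and Lamb3 (0.103) lost their calls, and with only those of 2, Mmp14 (0.0863) and Plod1 (0.0928). Library totals alone moved the median of all genes to -0.11 between homozygous KO and wild type. The heterozygous comparison gave 0 called matrix genes under each of these alternatives, and its median over the matrix genes, -0.05, ran from -0.12 to 0.06 with 1 library left out, and was 0.01 with the Xist covariate and 0.0 with only the wild types of 1 wt word. The heterozygous log2 fold change of Fbn2 became 0.01 with the Xist covariate. Of 1559 refitted fold changes of named genes, 1328 stayed the same, 202 lost a call, 24 gained one, 4 untested values moved and 1 reversed. For tested genes, the same means that direction and side of the threshold were kept. For Hspg2, which has no test, it means a value within 1 SE of the main fit. The causes were not tested. The shallowest wild types, at 39.8 and 41 M counts, limit genes near 0.0737 CPM, such as Lum and Mfap5.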
